A study of Mus musculus with 27 samples.

Results

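Day 3 chondroblasts were compared with multipotential mesenchymal cells, to describe the net change in mouse limb bud cells over a whole course of cartilage formation in culture. The day 3 group holds 3 RNA samples, and the mesenchymal group holds 3, so that 6 of the series' 9 RNA samples and 18 of its 27 arrays enter the comparison. They were chosen by their titles, and carry the replicate numbers 1, 3 and 4 in each group. The cells came from the region beneath the distal ridge of the developing limb, and chondroblasts were harvested at day 3 of culture. No day is given in the mesenchymal titles. The labels put purity at 90 to 95% in every sample and name fibroblasts as the other cell type. The sources used here give no strain, genotype or embryo age. The labels do not state whether the samples of a group came from separate cultures or animals, so the p-values measure only the spread between these samples.

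Cartilage in the limb forms from loose mesenchyme. Beneath the distal ridge the cells divide under fibroblast growth factor and Wnt signals and carry positional transcription factors of the Hox, Hand and Prrx families. They then gather into condensations, held together by cadherin and cell adhesion molecules, in which Sox9 with Sox5 and Sox6 switches on collagens II, IX and XI, aggrecan and matrilins. Cells at the edge of a condensation form the perichondrium, a fibrous sheath, and the future joint, which makes Gdf5. As chondroblasts build matrix they leave the division cycle, with Cdkn1c, an inhibitor of cyclin-dependent kinases, as one of the brakes.

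RNA was read on 3 Affymetrix array types (A, B and C), as 1 signal per probe set. Signals were rescaled so that each array had a trimmed mean of 500, and levels below are in those units. A probe set was tested where its mean reached 200 in at least 1 group, and a log2 change is that of the signal plus 50, given with limma's standard error and its Benjamini-Hochberg adjusted p. Group means are given with their SD (n = 3). Where a group's mean lies under 200, the log2 change depends on the 50 that was added. Within a group, samples correlated at 0.910 to 0.981 on type A, and between the groups at 0.850 to 0.916. On type B these were 0.824 to 0.934 within and 0.792 to 0.860 between, and on type C 0.8005 to 0.894 within and 0.787 to 0.866 between, so that on both the ranges overlapped. The signal of the 18S control was high in 1 sample of each group, including day 3 replicate 4 (17291) and mesenchymal replicate 1 (18027). The arrays were scanned in batches that run close to the groups. On types A and B no batch held both day 3 and mesenchymal arrays, and on type B batch and group cannot be told apart. On type A they are linked through day 1 arrays, and on type C 1 batch held 3 day 3 arrays and 1 mesenchymal array. Values with the batch in the fit, which can be had for types A and C, stand beside the results below, and the part of the batch in the results was not tested beyond them.

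Of 12214 genes tested, 586 fell (4.80%) and 1059 rose (8.67%) at day 3 against mesenchymal cells, by limma at an adjusted p under 0.05. Among genes that fell the median log2 change was -1.02, and 302 fell by 1 or more and 36 by 2 or more on the log2 scale. Among those that rose the median was 1.37, and 804 rose by 1 or more and 223 by 2 or more. The median of all genes tested was -0.05. The values of the groups did not overlap for 583 of the genes that fell and 1050 of those that rose, against 32.1% of all genes tested. In 124 genes that fell the day 3 mean was under 200, and in 281 that rose the mesenchymal mean was. List members with a mean under 200 in every group were not tested. The counts and median of a list can therefore follow in part from the group where its members are high. The counts of genes leaned on single samples. Without day 3 replicate 1, 300 genes fell and 663 rose, without day 3 replicate 3 the counts were 313 and 676, and without mesenchymal replicate 3 they were 351 and 864.

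With the scan batch as a term, which on type A rests on 1 day 1 array scanned with mesenchymal arrays, the direction of each call on types A and C stood but fewer calls passed. Of 452 genes that fell on those types, 452 kept their sign and 48 stayed past the threshold, with a median log2 change of -1.02 with the batch and -1.01 without. Of 737 that rose, 737 kept their sign and 225 stayed past the threshold, with medians of 1.46 with the batch and 1.41 without. The median standard error of these genes was 0.39 with the batch and 0.22 without among those that fell, and 0.42 and 0.25 among those that rose. Inside the mixed batch of type C, all 21 genes that fell on that type were negative and all 59 that rose were positive. The arrays of that batch also entered the calls, so these counts are not a separate check of them. Called genes given below with a log2 change from type B have no value with the batch as a fixed term. They are Zic5, Osr1, Lgr4, Rdh10, Rarb, Fgfrl1, Ncapd2, Slc25a37, Hic2, Cyria, Gimap6, Sox9 and Col27a1. The rest are Aspn, Col8a2, Col16a1, Fbln5, Plod1, P3h1, Pcolce2, Hs6st1, Sec24d, Creb3l2, Cald1, Fibin and Sema3d.

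**Figure D1:**
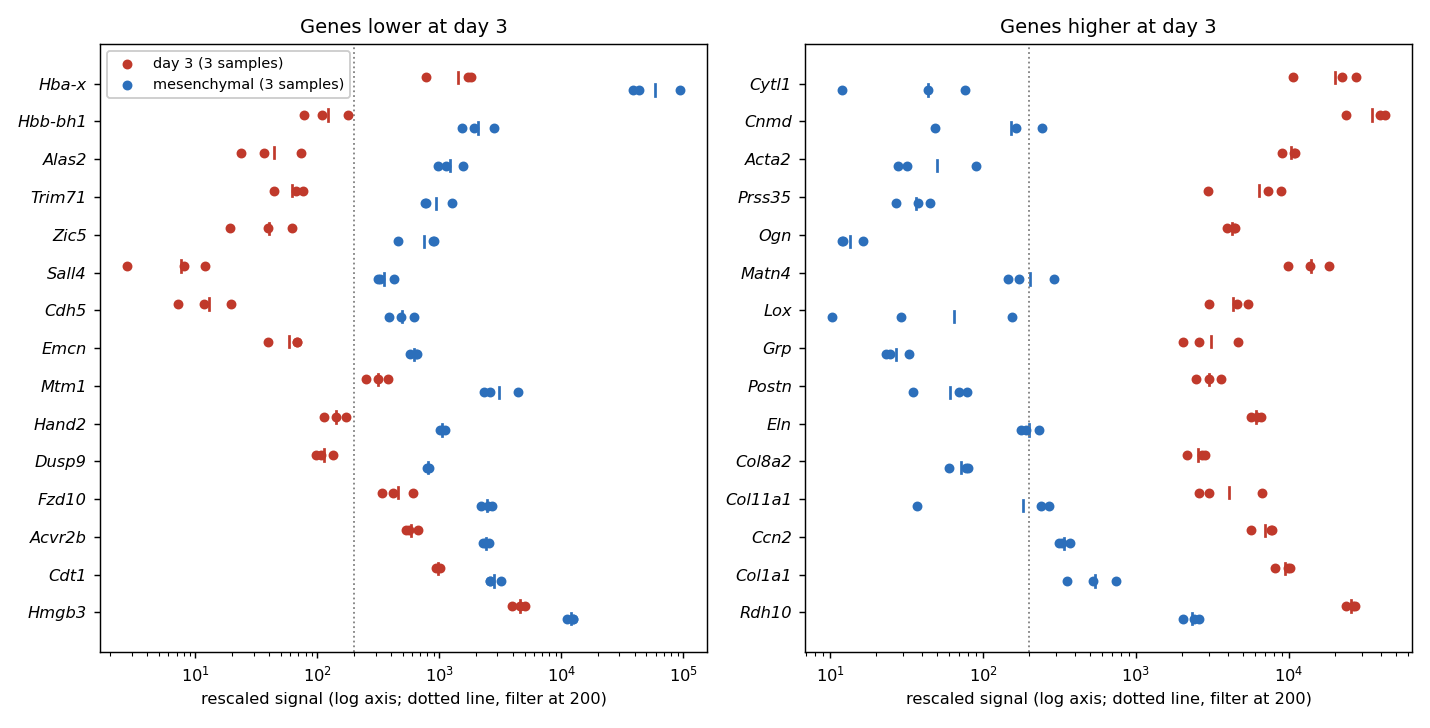
Rescaled signals of 15 genes that fell and 15 that rose, one point per RNA sample on a log axis, day 3 in red above mesenchymal cells in blue; short bars mark means and the dotted line the filter at 200. Red and blue points do not overlap for any gene shown, which follows in part from how the genes were chosen. Many of the lower values lie left of the dotted line.

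Genes of the early embryonic progenitor state were among the falls. Of 25 tested members of that list, 9 fell and 0 rose, with a median log2 change of -0.81. Trim71, an RNA-binding ubiquitin ligase that is a classic target of let-7 microRNAs, had signals of 43.9, 66.7 and 76.1 at day 3, against 761, 1263 and 777 in mesenchymal cells. Its day 3 samples all sat near the bottom of the scale and the groups did not overlap (log2 change -3.11 ± 0.49, adjusted p = 0.000601), while a second probe set gave a log2 change of -1.85 with an adjusted p of 0.0841. Zic5, a zinc finger factor of embryonic ectoderm and neural tissue, had 39.2, 19.3 and 62.5 at day 3, against 456, 890.2 and 899 in mesenchymal cells. Every mesenchymal value exceeded every day 3 value (log2 change -3.11 ± 0.43, adjusted p = 0.000283). Sall4, a zinc finger factor of pluripotent cells that is needed for limb development, had 2.76, 8.04 and 12.0 at day 3, against 423, 326 and 317 in mesenchymal cells, with groups far apart (log2 change -2.81 ± 0.35, adjusted p = 0.000254). Of its other probe sets, the first gave -2.96 (adjusted p = 6.16e-05) and the second -0.18 (adjusted p = 0.775), so that Sall4 was called on some probe sets and not on all. In these bulk samples, fewer cells of a type and less RNA per cell cannot be told apart.

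The RNA-binding protein Igf2bp1, which stabilises growth-related messages in embryonic tissue, stayed well expressed as it fell. It had 1253, 1517 and 1509.5 at day 3, against 3317, 6034 and 6057 in mesenchymal cells, and its lowest mesenchymal value lay above its highest day 3 value (log2 change -1.77 ± 0.23, adjusted p = 0.000379), although a second probe set gave 0.22 (adjusted p = 0.81). Arid3b, an AT-rich DNA-binding factor that the mouse embryo needs, had 171, 151 and 247 at day 3, against 767, 584 and 775 in mesenchymal cells (log2 change -1.67 ± 0.23, adjusted p = 0.000577), with no overlap. Sall3, a relative of Sall4, had 109, 224 and 275 at day 3, against 675, 745 and 718 in mesenchymal cells, again with all day 3 values lower (log2 change -1.65 ± 0.27, adjusted p = 0.0017). Other genes of the Lin28 and let-7 circuit did not pass the test. Lin28a, which blocks let-7 maturation, had a log2 change of -1.24 ± 0.47 (adjusted p = 0.117) and Mycn, a driver of progenitor growth, one of -0.81 ± 0.25 (adjusted p = 0.0636). Hmga2, a chromatin protein and let-7 target, had 5311, 4957 and 3929 at day 3, against 2020.3, 3968 and 3306 in mesenchymal cells, with overlapping groups and an adjusted p of 0.102; its day 1 mean was 8968 ± 1384. Igf2bp3 had a log2 change of 0.53 ± 0.30 (adjusted p = 0.298). The list's median was -0.71 at day 1 against the same mesenchymal samples, beside -0.81 at day 3. With the scan batch in the fit, 1 member of the list fell on types A and C, against 8 without it. Trim71 alone of the 5 called genes above on types A and C stayed past the threshold, and all 5 kept their sign.

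The positional transcription factors split. In a list of 31 tested limb patterning factors, 5 fell and 5 rose, with a median of -0.25; without mesenchymal replicate 3 the falls numbered 3. Hand2, which sets up the posterior limb and its Shh signal, had 172, 142 and 113 at day 3, against 1011, 1109 and 1056 in mesenchymal cells. All 3 day 3 values were far below the mesenchymal ones (log2 change -2.54 ± 0.22, adjusted p = 1.44e-05), and a second probe set fell by 3.12 on the log2 scale. Prrx2, a homeobox factor of limb mesenchyme, had 3079.6, 4059.8 and 2632 at day 3, against 5397, 6109 and 6684 in mesenchymal cells, and these did not overlap (log2 change -0.90 ± 0.20, adjusted p = 0.0111), though a second probe set was not called at -0.42. Its partner Prrx1 was lower in each day 3 sample, with a log2 change of -0.58 ± 0.26 that did not pass the test (adjusted p = 0.205), and Lhx9, a LIM factor of the distal limb, was near the threshold at -1.23 ± 0.37 (adjusted p = 0.0529).

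Of 26 tested Hox genes, 1 fell, Hoxa13, which patterns the digits, and 0 rose. The list's median was -0.45, and without mesenchymal replicate 4 the falls numbered 3. Hoxa13 had 578, 722 and 569.6 at day 3, against 1046, 1163 and 985 in mesenchymal cells. The groups did not overlap (log2 change -0.73 ± 0.18, adjusted p = 0.0221), but the adjusted p was 0.0932 without day 3 replicate 1, 0.0593 without day 3 replicate 4 and 0.0799 without mesenchymal replicate 3. Hoxd13 and Hoxd11, which act with it in digit and forearm, had overlapping groups. Hoxd13 had a log2 change of -0.49 ± 0.23 (adjusted p = 0.228) and a day 1 mean of 4223 ± 783, above both end points. Hoxd11 had 0.55 ± 0.21 (adjusted p = 0.13) and Hoxa11 -0.25 ± 0.31 (adjusted p = 0.679).

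Other patterning factors rose. Osr1, a zinc finger factor of connective tissue and joint precursors, had 2069, 1977 and 1399.6 at day 3, against 141, 159.9 and 237 in mesenchymal cells. Its lowest day 3 value was above all mesenchymal ones (log2 change 3.02 ± 0.23, adjusted p = 1.38e-06), and its day 1 mean of 3129 ± 506 was higher than its day 3 mean of 1815 ± 363. Msx1, a homeobox factor of distal mesenchyme, had 3955, 3888 and 3704 at day 3, against 1059.8, 701 and 1210.2 in mesenchymal cells, and the day 3 samples were all high and close together (log2 change 1.94 ± 0.20, adjusted p = 5.97e-05). Twist2, a helix-loop-helix factor of mesenchyme and dermis, had 3639.7, 1866 and 3388 at day 3, against 1022, 939 and 694 in mesenchymal cells, with day 3 replicate 3 the lowest of its group but above every mesenchymal sample (log2 change 1.65 ± 0.29, adjusted p = 0.00309). Pkdcc, a secreted kinase needed for long bone growth, was at 582, 622 and 712 at day 3 and at 214, 109 and 18.5 in mesenchymal cells (log2 change 2.27 ± 0.44, adjusted p = 0.00576). Tbx3, a T-box factor of the limb margins, had 654, 821 and 198 at day 3, against 58.2, 24.3 and 134 in mesenchymal cells; the groups were separate but day 3 replicate 4 was low, and the call (log2 change 2.23 ± 0.58, adjusted p = 0.0216) was lost without day 3 replicate 1 or 3 (adjusted p = 0.0942 and 0.112) and without mesenchymal replicate 1 or 3 (0.0522 and 0.0839). Msx2 had a log2 change of 0.66 ± 0.42 (adjusted p = 0.368), with mesenchymal replicate 3 apart from the rest of its group. Of the 7 called genes named in these paragraphs on types A and C, Hand2 and Msx1 stayed past the threshold with the scan batch in the fit, and all 7 kept their sign. In the whole patterning list on those types, 1 rose and 1 fell with the batch, against 4 and 5 without it, and no Hox gene fell.

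Single receptors and effectors of signalling pathways were among the falls, while the lists that hold such genes, given below, had more rises than falls. Acvr2b, a receptor for activins and Gdf11, had 563, 536 and 668 at day 3, against 2573, 2376 and 2298 in mesenchymal cells. No values overlapped (log2 change -1.95 ± 0.16, adjusted p = 9.54e-06). Fzd10, a Wnt receptor, had 341, 415 and 613 at day 3, against 2196, 2532 and 2681 in mesenchymal cells, with the highest day 3 sample still far below the lowest mesenchymal one (log2 change -2.35 ± 0.31, adjusted p = 0.000116). Lef1, the nuclear partner of beta-catenin in Wnt signalling, had 399, 515 and 532 at day 3, against 1343, 1462 and 1436 in mesenchymal cells, and each of its other probe sets also fell, by 1.98 and 1.58 on the log2 scale (log2 change -1.47 ± 0.18, adjusted p = 0.000208). Dusp9, a phosphatase that shuts off ERK and p38 kinases, had 96.6, 134 and 106 at day 3, against 797, 803 and 829.9 in mesenchymal cells. The groups stood far apart (log2 change -2.41 ± 0.24, adjusted p = 3.82e-05), and 3 of its 5 other probe sets fell as well, with the other two at -0.29 and -0.56 and not past the threshold. Crabp2, which carries retinoic acid to its receptor, had 988, 1591 and 576 at day 3, against 2268, 2711 and 2883 in mesenchymal cells (log2 change -1.38 ± 0.30, adjusted p = 0.0118), without overlap, but a second probe set gave 1.33 (adjusted p = 0.0639). The targets that report active FGF signalling were not called in either direction. Dusp6 had a log2 change of -0.65 ± 0.24 (adjusted p = 0.116), Etv4 of -0.51 ± 0.34 (adjusted p = 0.402), Etv5 of -0.11 ± 0.34 (adjusted p = 0.88) and Spry4 of -0.43 ± 0.39 (adjusted p = 0.55).

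Ligands of the TGF-beta superfamily rose in number. Of 42 tested members of that pathway list, 14 rose and 2 fell (Acvr2b and Gdf11), with a median of 0.30. Gdf5, the joint and condensation factor, had 2090.4, 1706 and 1748 at day 3, against 228, 329 and 211 in mesenchymal cells (log2 change 2.65 ± 0.19, adjusted p = 3e-06). The day 3 samples were uniformly high, though below the day 1 mean of 3264 ± 437. Gdf10, a relative of Bmp3, had 3645, 3309.8 and 3341 at day 3, against 246, 131 and 409 in mesenchymal cells, with no overlap (log2 change 3.58 ± 0.27, adjusted p = 4.5e-06). Tgfb3 had 2919, 3636 and 3752 at day 3, against 565, 654 and 378 in mesenchymal cells, all day 3 values high (log2 change 2.60 ± 0.20, adjusted p = 4.93e-06), and Tgfb2 had a log2 change of 2.67 ± 0.30 (adjusted p = 9.53e-05). Bmp7, which drives condensation and later matrix, was called at 1.90 ± 0.21 (adjusted p = 9.07e-05) and Bmp4 at 1.82 ± 0.19 (adjusted p = 5.58e-05), though of Bmp4's other probe sets 1 gave -0.41 (adjusted p = 0.606). Fstl1, a secreted binder of BMPs, had 7023, 6681 and 7108 at day 3, against 1731, 1761 and 1878 in mesenchymal cells. Its samples were tightly grouped on either side (log2 change 1.93 ± 0.14, adjusted p = 4.15e-06).

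Most members of the Wnt and FGF lists were not called, and those that were lay mainly on the higher side. Of 41 tested Wnt members, 10 rose and 3 fell (Lef1, Axin1 and Wnt5a; 1 without day 3 replicate 3), with a median of 0.31. The secreted inhibitor Dkk3 had 3373, 3306 and 3823 at day 3, against 469, 309.6 and 214 in mesenchymal cells (log2 change 3.27 ± 0.23, adjusted p = 2.3e-06), and Sfrp2, which binds Wnt ligands, had 5113, 6458 and 4833 at day 3, against 2079, 1890.2 and 2104 in mesenchymal cells (log2 change 1.40 ± 0.16, adjusted p = 0.000107). Neither had overlapping groups, and for Sfrp2 the day 1 mean of 10129 ± 1143 was above both. Lgr4, an R-spondin receptor, had a log2 change of 1.47 ± 0.21 (adjusted p = 0.000328). In the retinoid list of 14 tested genes, 6 rose and 2 fell (Crabp1 and Crabp2), with a median of 0.51. Rdh10, which makes retinaldehyde in embryonic tissue, had 26160.5, 26831 and 23696 at day 3, against 2026, 2383 and 2564 in mesenchymal cells (log2 change 3.44 ± 0.18, adjusted p = 2.95e-08), with day 3 samples high and alike, and its other probe sets rose by 3.80 and 4.95 on the log2 scale. All of these Rdh10 probe sets are on type B, where batch and group cannot be told apart. Rarb, a retinoic acid receptor that is itself induced by retinoic acid, had 1673, 2046 and 1162 at day 3, against 453, 180.0 and 298 in mesenchymal cells, with no overlap (log2 change 2.25 ± 0.29, adjusted p = 0.00014). Aldh1a2, which makes retinoic acid, had 1022, 825 and 888 at day 3, against 326, 217 and 331 in mesenchymal cells (log2 change 1.51 ± 0.21, adjusted p = 0.000545), far under its day 1 mean of 4993 ± 1029; its other probe sets gave -0.76 (adjusted p = 0.456) and 0.00 (adjusted p = 0.996).

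Of 32 tested FGF and hedgehog members, 6 rose, 0 fell and 26 were not called, with a median of -0.09 close to that of all genes. Of these, 2 rose without day 3 replicate 1 and 3 without mesenchymal replicate 3. Fgfr2, the receptor of condensations and perichondrium, had 4264, 3927 and 5608 at day 3, against 1539, 1134 and 1264 in mesenchymal cells. All day 3 values were higher (log2 change 1.76 ± 0.19, adjusted p = 7.24e-05), while its other probe sets ranged from 0.01 to 2.02. Fgfrl1, a decoy FGF receptor, had a log2 change of 1.15 ± 0.17 (adjusted p = 0.000482). Pth1r, the receptor that holds chondrocytes back from hypertrophy, had 2892, 1928 and 2700.1 at day 3, against 618, 532 and 851 in mesenchymal cells, with no overlap (log2 change 1.84 ± 0.23, adjusted p = 0.000211), and Ihh, its partner in the growth plate, was not called at 0.94 ± 0.35 (adjusted p = 0.122). Of the 17 called signalling genes named here on types A and C, 14 stayed past the threshold with the scan batch in the fit, and all 17 kept their sign. In the lists on those types, 6 TGF-beta superfamily members rose with the batch and 13 without, 3 Wnt members and 8, 2 FGF and hedgehog members and 4, and 3 retinoid members and 5.

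Genes of DNA replication fell as a list. Of 47 tested members, 18 fell and 0 rose, a share to set beside the 4.80% of all genes that fell, and the list's median was -0.60. Of 50 tested mitosis genes, 14 fell and 0 rose, with a median of -0.56. Without day 3 replicate 1 the falls numbered 11 for replication and 8 for mitosis, and without mesenchymal replicate 3 they numbered 8 for mitosis. With the scan batch in the fit on types A and C, 2 of 18 replication falls and 0 of 13 mitosis falls passed, with list medians of -0.61 and -0.44 beside -0.59 and -0.57 for the same genes without it.

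The promoters of 4 genes that fell are shown because both lists hold genes known in mammals for shared promoter words: E2F words in replication genes, which E2F factors bind, and CCAAT with the cell cycle homology region TTTGAA in mitosis genes, used by NF-Y and the DREAM complex. The sequences are RefSeq promoters of build GRCm38.p6, from 250 bases before to 50 bases after the annotated start, 5′ to 3′ on the gene's strand. Capitals mark matches on either strand to an E2F word (TTTCCCGC, TTTCGCGC, TTTGCCGC or TTTGGCGC) in the replication genes Mcm7 (chr5:138171834-138172133, minus strand) and Cdt1 (chr8:122567765-122568064, plus strand). In the mitosis genes Ccnb2 (chr9:70421505-70421804, minus strand) and Cks1b (chr3:89418242-89418541, minus strand) they mark CCAAT and TTTGAA.
Mcm7: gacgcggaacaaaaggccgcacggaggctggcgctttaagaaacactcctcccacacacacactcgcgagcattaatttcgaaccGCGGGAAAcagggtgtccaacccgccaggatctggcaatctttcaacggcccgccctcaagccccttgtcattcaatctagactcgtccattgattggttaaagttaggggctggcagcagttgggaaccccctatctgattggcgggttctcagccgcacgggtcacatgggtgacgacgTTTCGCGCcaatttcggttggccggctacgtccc
Cdt1: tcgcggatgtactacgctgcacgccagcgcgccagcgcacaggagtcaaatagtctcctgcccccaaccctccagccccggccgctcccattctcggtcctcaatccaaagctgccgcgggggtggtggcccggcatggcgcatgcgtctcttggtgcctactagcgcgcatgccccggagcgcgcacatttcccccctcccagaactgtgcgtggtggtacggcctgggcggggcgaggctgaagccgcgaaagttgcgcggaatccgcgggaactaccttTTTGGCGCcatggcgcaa
Ccnb2: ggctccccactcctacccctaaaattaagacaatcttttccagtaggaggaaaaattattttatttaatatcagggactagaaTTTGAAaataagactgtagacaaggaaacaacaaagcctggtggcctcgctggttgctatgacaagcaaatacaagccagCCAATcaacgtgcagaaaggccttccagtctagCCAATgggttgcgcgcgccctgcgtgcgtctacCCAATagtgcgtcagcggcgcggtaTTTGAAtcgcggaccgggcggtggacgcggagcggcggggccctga
Cks1b: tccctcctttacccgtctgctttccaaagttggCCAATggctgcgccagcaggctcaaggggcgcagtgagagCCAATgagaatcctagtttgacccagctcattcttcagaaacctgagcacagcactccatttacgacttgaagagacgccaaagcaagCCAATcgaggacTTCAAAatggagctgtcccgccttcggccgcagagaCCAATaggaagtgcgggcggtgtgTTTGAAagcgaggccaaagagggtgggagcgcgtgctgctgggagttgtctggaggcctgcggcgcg
E2F words stood in the promoters of 6 of 16 replication genes that fell and had a promoter entry (37.5%), and of 5 of 23 that were not called (21.7%), against 2.32% of all 27025 genes with an entry. CCAAT stood in 8 of 11 mitosis genes that fell (72.7%) and in 24 of 31 not called (77.4%), against 37.9% of all. TTTGAA stood in 7 of 11 that fell (63.6%) and in 20 of 31 not called (64.5%), against 18.1% of all. Motifs were counted separately and may overlap. The words thus marked both lists whether or not a member passed the test. A match is a description of the sequence and not evidence of binding.

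Cdt1, which loads the replicative helicase onto origins, had 1014, 972 and 944 at day 3, against 2589, 2612 and 3234 in mesenchymal cells. The day 3 samples lay within a narrow band under the mesenchymal ones (log2 change -1.47 ± 0.15, adjusted p = 4.86e-05), and its other probe sets gave -1.29 and -1.24, the second with an adjusted p of 0.266. Mcm7, a subunit of that helicase, had 1564, 1542 and 1150.0 at day 3, against 3107, 2549 and 4392 in mesenchymal cells (log2 change -1.19 ± 0.21, adjusted p = 0.00286), with no overlap. For Mcm5, another subunit, the values were 2454, 2476 and 3086 at day 3, against 6249, 6999 and 4877 in mesenchymal cells (log2 change -1.15 ± 0.17, adjusted p = 0.00105), and its other probe sets gave -1.97 (adjusted p = 0.0407) and -0.07 (adjusted p = 0.91). Cdc6 and Orc6, which mark origins, fell by 1.41 ± 0.25 and 1.05 ± 0.19 on the log2 scale, with adjusted p of 0.00306 and 0.00309. Fen1, the nuclease that trims Okazaki fragments, had 436, 544 and 341 at day 3, against 1086, 1302 and 1334 in mesenchymal cells; every day 3 sample was lower (log2 change -1.41 ± 0.21, adjusted p = 0.000958). Pcna, the polymerase clamp, had 2555, 2592 and 2173 at day 3, against 4682, 5609 and 7361 in mesenchymal cells, without overlap (log2 change -1.23 ± 0.20, adjusted p = 0.00206), and Chaf1a, which places histones behind the fork, fell by 1.16 ± 0.22 (adjusted p = 0.00426).

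In mitosis the falls were near a log2 change of -1. Ccnb2, a mitotic cyclin, had 2415, 2966 and 3294 at day 3, against 5018, 6211 and 4953 in mesenchymal cells, with all day 3 values below all mesenchymal ones (log2 change -0.89 ± 0.17, adjusted p = 0.00542). Cks1b, a subunit of cyclin-dependent kinases, had 3686, 3634 and 3485 at day 3, against 6314, 7962 and 6719 in mesenchymal cells. Its groups were tight and separate (log2 change -0.94 ± 0.14, adjusted p = 0.000967). Kif2c, a kinesin that takes microtubules apart, fell by 0.88 ± 0.16 on the log2 scale (adjusted p = 0.00455), Ncapd2, a condensin subunit, by 1.09 ± 0.21 (adjusted p = 0.0036), and Cks2 by 0.96 ± 0.19 (adjusted p = 0.00692). The best known markers of dividing cells were not called. Mki67 had 339, 617 and 452 at day 3, against 605, 335 and 1222 in mesenchymal cells, overlapping values with a log2 change of -0.43 ± 0.36 (adjusted p = 0.503), and Top2a had -0.54 ± 0.26 (adjusted p = 0.218) with separate groups.

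**Figure D2:**
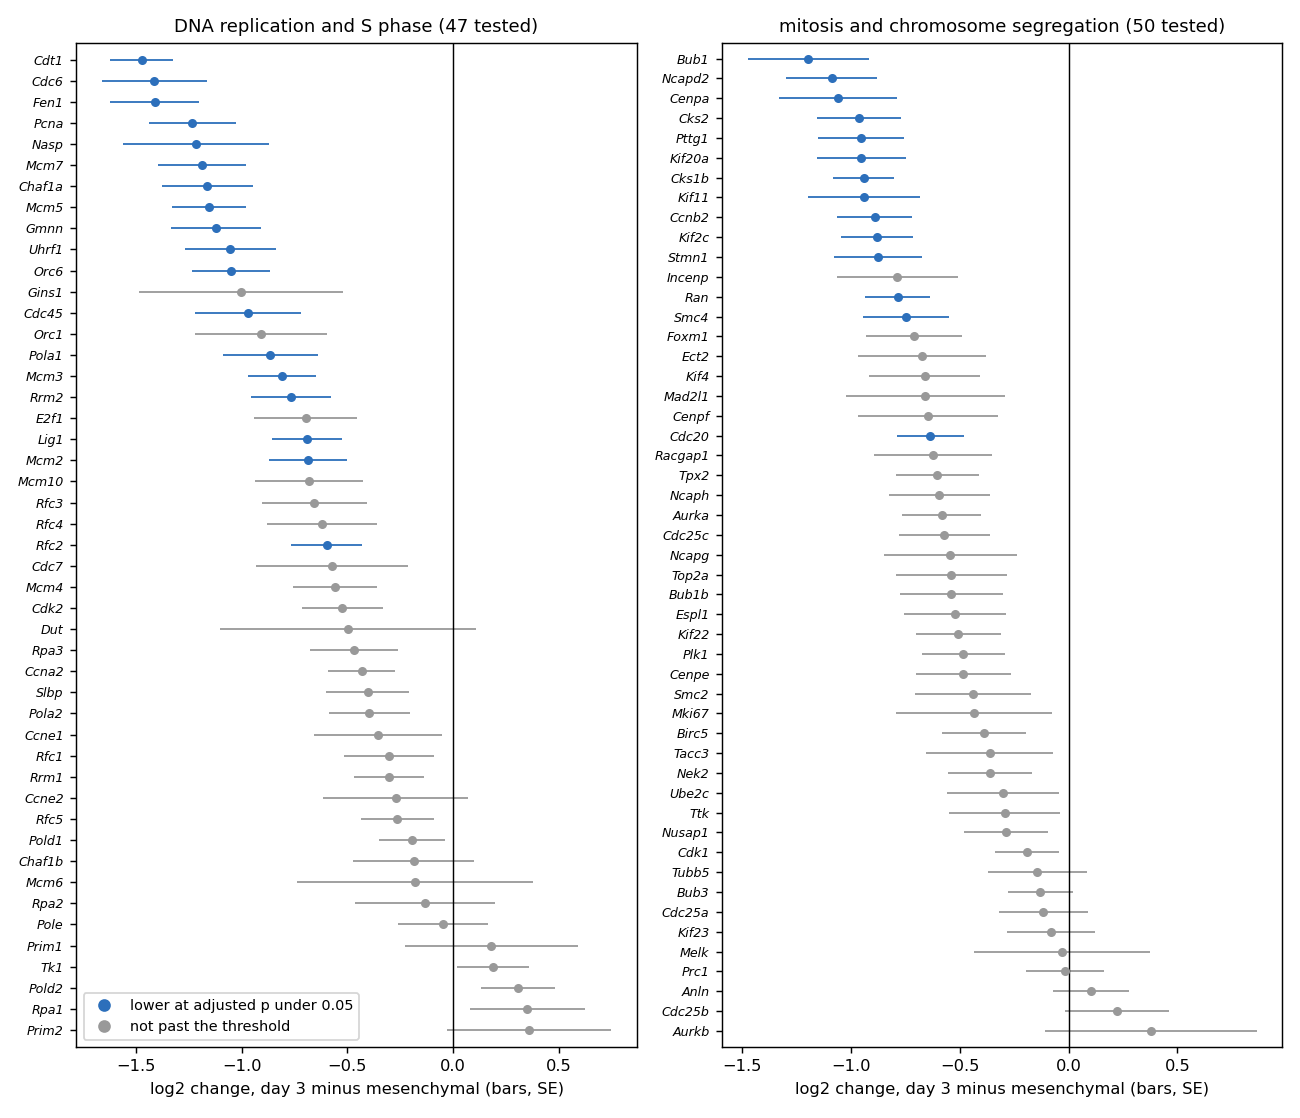
Log2 change with its standard error for each tested gene of the replication list (left, 47 genes) and the mitosis list (right, 50 genes), sorted by size; blue genes passed the threshold as lower at day 3, grey genes did not. Most points lie left of 0 in both panels, and no gene is called as higher.

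Of 24 tested D cyclins, cyclin-dependent kinase inhibitors and growth arrest genes, 5 rose, 2 fell and 17 were not called, with a median of 0.32. Cdkn1c had 20547, 21816 and 20916 at day 3, against 5638, 5268 and 8425 in mesenchymal cells, with day 3 samples close together and all higher (log2 change 1.73 ± 0.20, adjusted p = 0.000109). Its day 1 mean was 29017 ± 4911. Cdkn2b, an inhibitor of the cyclin D kinases that TGF-beta induces, had 432, 523 and 351 at day 3, against 53.9, 25.8 and 24.9 in mesenchymal cells (log2 change 2.52 ± 0.37, adjusted p = 0.000875), with no overlap and a day 1 mean of 15.6 ± 15.0. Gas2, a cytoskeletal protein named for growth arrest, had 5395, 5588 and 2670.0 at day 3, against 537, 386 and 483 in mesenchymal cells, with day 3 replicate 4 the lowest of its group (log2 change 3.09 ± 0.25, adjusted p = 8.22e-06), while of its other probe sets 1 was not called at 0.84. Ccng2, a cyclin made in resting cells, went the other way, with 997, 1019 and 742 at day 3, against 1714, 2556 and 2599 in mesenchymal cells (log2 change -1.26 ± 0.21, adjusted p = 0.00228). The D cyclins Ccnd1 and Ccnd2 were not called, with log2 changes of 0.51 ± 0.31 (adjusted p = 0.348) and 0.00 ± 0.24 (adjusted p = 0.998), with overlapping groups. Cdkn1c, Cdkn2b and Gas2 stayed past the threshold with the scan batch in the fit, and Ccng2 did not.

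Chromatin and RNA processing genes fell alongside. Of 46 tested chromatin and DNA methylation genes, 14 fell and 2 rose (median -0.48), and of 45 splicing genes 9 fell and 0 rose (median -0.54). Without day 3 replicate 1 the falls were 8 and 5, and without day 3 replicate 3 the splicing falls were 4. With the scan batch in the fit on types A and C, 1 of 14 chromatin falls and 0 of 9 splicing falls passed, and the splicing median was -0.10 with the batch and -0.56 without. Hmgb3, a chromatin protein of progenitor cells, had 5084, 4621 and 3962 at day 3, against 11243, 12430.4 and 12379 in mesenchymal cells, with every mesenchymal value far above the day 3 values (log2 change -1.40 ± 0.14, adjusted p = 5.23e-05); a second probe set gave -0.99 (adjusted p = 0.15). Cbx2, a reader of Polycomb marks, had 553, 383 and 272 at day 3, against 1496, 1655 and 1806 in mesenchymal cells (log2 change -1.96 ± 0.24, adjusted p = 0.000185), and Ezh2, the enzyme that writes them, had 968, 959 and 1089 at day 3, against 1888, 2325 and 2248 in mesenchymal cells (log2 change -1.06 ± 0.17, adjusted p = 0.00176). Neither had overlapping groups. Uhrf1, which keeps DNA methylation after replication, fell by 1.05 ± 0.21 on the log2 scale (adjusted p = 0.00757), Trim28, a corepressor of transposable elements, by 0.82 ± 0.16 (adjusted p = 0.00542), and the splicing factor Srsf2 by 0.83 ± 0.13 (adjusted p = 0.00161). Their other probe sets were negative but not called, at -1.22 for Uhrf1, -0.56 and -0.63 for Trim28 and -0.38 for Srsf2.

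Ahcy, which clears the by-product of methylation reactions, had 1357, 1636 and 1154 at day 3, against 4346, 4579 and 5649.7 in mesenchymal cells. All probe sets of the gene fell, and the day 3 values were far below the rest (log2 change -1.78 ± 0.18, adjusted p = 5.64e-05). Odc1, the first enzyme of polyamine synthesis, fell by 0.92 ± 0.18 (adjusted p = 0.00655), and Fbl, which methylates ribosomal RNA, by 0.82 ± 0.15 (adjusted p = 0.00349). The ribosome biogenesis list had a median of -0.13, beside -0.05 over all genes. Of its 50 tested members 6 fell and 0 rose, a larger share than the 4.80% of all genes that fell. The falls numbered 2 without day 3 replicate 1 or 4, and 3 without mesenchymal replicate 1. They numbered 1 without day 3 replicate 3 or mesenchymal replicate 4. Of the 9 called genes named in these 2 paragraphs, Hmgb3 and Ahcy stayed past the threshold with the scan batch in the fit, and all 9 kept their sign.

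Markers of blood and vessels fell steeply. Of 13 tested erythroid genes 10 fell and 0 rose, with a median of -2.61, and of 17 endothelial genes 9 fell and 1 rose (Eng), with a median of -1.31. Hba-x, an embryonic alpha-like globin, had 774, 1717 and 1811 at day 3, against 93889, 43541 and 39148 in mesenchymal cells. The groups differed by more than an order of magnitude (log2 change -5.28 ± 0.77, adjusted p = 0.000783). Hbb-bh1, an embryonic beta-like globin, had 108, 179.9 and 77.0 at day 3, against 2790.5, 1914 and 1528 in mesenchymal cells (log2 change -3.63 ± 0.53, adjusted p = 0.000795). Globin genes have near-identical relatives, so which globin a probe set reads is uncertain. Alas2, the erythroid haem enzyme, had 72.8, 23.7 and 36.3 at day 3, against 1557, 979 and 1132 in mesenchymal cells, with no overlap (log2 change -3.76 ± 0.72, adjusted p = 0.00519). Slc25a37, which imports iron into mitochondria, and Car2, carbonic anhydrase of red cells, fell by 2.52 ± 0.29 (adjusted p = 5.58e-05) and 2.94 ± 0.43 (adjusted p = 0.000863) on the log2 scale. The other Slc25a37 probe sets gave -1.73 (adjusted p = 0.0203) and -0.82 (adjusted p = 0.418). Slc4a1, the red cell anion exchanger, fell by 3.15 ± 0.51 (adjusted p = 0.0018), with a second probe set at -0.27.

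Cdh5, the cadherin of endothelial junctions, had 19.7, 7.13 and 11.9 at day 3, against 384, 483 and 623 in mesenchymal cells. All day 3 values were near the bottom of the scale (log2 change -3.10 ± 0.37, adjusted p = 0.000166), and the day 1 mean was 16.5 ± 8.74. Emcn, a sialomucin of capillaries, had 39.0, 67.8 and 67.8 at day 3, against 574, 638 and 650.2 in mesenchymal cells (log2 change -2.64 ± 0.31, adjusted p = 0.000158), without overlap. Sox18, a factor of vessel formation, fell by 1.92 ± 0.28 (adjusted p = 0.000811), Cldn5, a tight junction protein, by 2.24 ± 0.41 (adjusted p = 0.00402), and the semaphorin receptor Plxnd1 by 2.43 ± 0.37 (adjusted p = 0.00117). Macrophage genes went the other way, with 7 of 15 higher and 0 lower and a median of 0.74. Ptprc, Adgre1, Aif1, Itgam and Spi1, which define the lineage, were below the filter in every group, and with members under the filter included the median was -0.22. C1qa, a complement protein of tissue macrophages, had 681, 752 and 794 at day 3, against 74.5, 82.4 and 33.8 in mesenchymal cells (log2 change 2.83 ± 0.25, adjusted p = 1.37e-05), and Lyz2, their lysozyme, had 642, 482 and 503 at day 3, against 32.1, 26.5 and 25.5 in mesenchymal cells (log2 change 2.92 ± 0.30, adjusted p = 5.84e-05). No values overlapped for either. Ctss, a lysosomal protease, rose by 1.69 ± 0.22 (adjusted p = 0.00028), while Cd68 was not called at 0.45 ± 0.25 (adjusted p = 0.3).

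Summed over each marker list, the erythroid signal was 8797, 21763 and 17814 at day 3, against 263647, 124457 and 123885 in mesenchymal cells. The endothelial sum was 5829, 5825 and 7909 at day 3, against 10780, 10546 and 9900 in mesenchymal cells. The macrophage sum was 8029, 7696 and 8148 at day 3, against 5314, 5098 and 3044 in mesenchymal cells. In all 3 lists the groups were separate, and mesenchymal replicate 1 held the most erythroid signal. The sums hold only members that passed the filter. At day 3, 7 of 13 erythroid and 10 of 17 endothelial genes had a mean under 200, as did 4 of 15 macrophage genes in mesenchymal cells. Such genes entered through a group where they are high, so the separation can follow in part from the filter. Markers of further cell types stand beside 8.67% of all genes that rose and 4.80% that fell. Of these markers, 1 of 19 ectodermal genes rose and 1 fell, 2 of 13 neural genes fell and 3 of 12 adipocyte genes rose. The part of these cells in the other falls and rises was not tested. Of erythroid genes on types A and C, 7 fell with the scan batch in the fit and 9 without, of endothelial genes 2 and 9, and 2 macrophage genes rose with it and 7 without. Of the 13 called genes named in these paragraphs on those types, 9 stayed past the threshold with the scan batch in the fit, among them Hba-x, Alas2, Cdh5, Emcn, C1qa and Lyz2, and all 13 kept their sign. On type A that fit rests on day 1 replicate 1, whose erythroid sum was 11583, against 74797 and 122053 in day 1 replicates 3 and 4. Log2 changes of erythroid genes grew with it, to -9.07 for Hba-x, -7.28 for Alas2 and -6.15 for Hbb-bh1. Those of Cdh5 (-3.17) and Emcn (-2.81) stayed near their values without it. The part of that sample in these sizes was not tested.

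**Figure D3:**
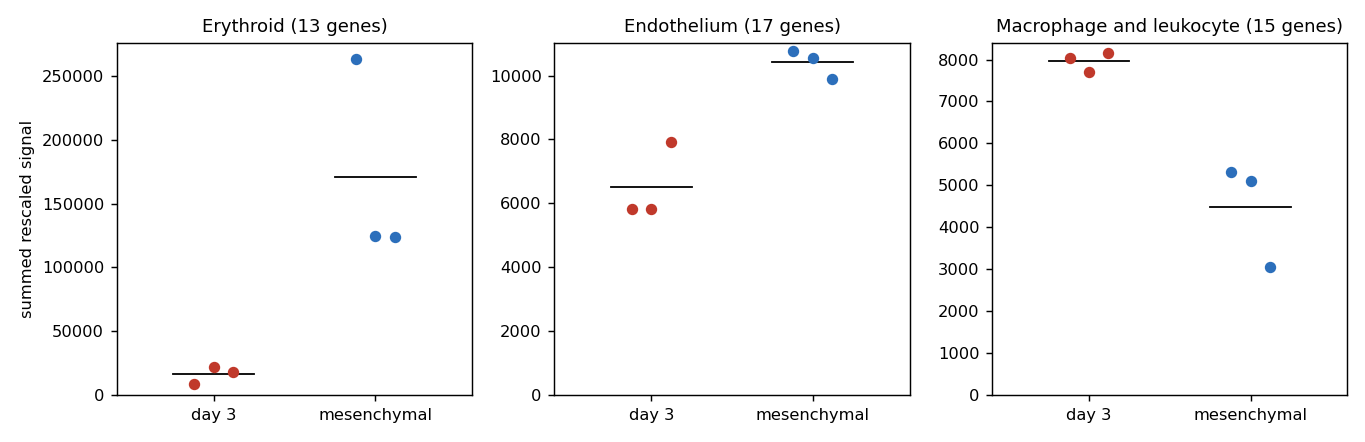
Summed rescaled signal of the tested erythroid, endothelial and macrophage markers in each RNA sample, day 3 in red left of mesenchymal cells in blue, with bars at the means and axes from 0. Day 3 samples lie lower in the first and second panels and higher in the third. Only genes that passed the filter are summed, so the separation can follow in part from the filter.

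Several of the steepest falls belonged to no list. Rasgef1b, an exchange factor for small GTPases, had 1313, 2489 and 484 at day 3, against 11806, 19079.6 and 11216 in mesenchymal cells, separate but spread widely at day 3 (log2 change -3.48 ± 0.42, adjusted p = 5.52e-05). Mtm1, a lipid phosphatase, had 314, 376 and 249 at day 3, against 2606, 2317 and 4419.8 in mesenchymal cells (log2 change -3.08 ± 0.28, adjusted p = 1.69e-05), and Pip4k2c, a lipid kinase, had 158, 200.04 and 366 at day 3, against 6922, 3697 and 2055 in mesenchymal cells (log2 change -3.77 ± 0.62, adjusted p = 0.00188). Their other probe sets did not all follow. That of Rasgef1b gave -0.04 and that of Pip4k2c 0.05, neither past the threshold, and those of Mtm1 gave -2.62 (adjusted p = 0.000525) and -0.38 (adjusted p = 0.753). Hic2, a transcriptional repressor, was more even, with 331, 701 and 273 at day 3, against 1893, 2436 and 1749.8 in mesenchymal cells and a second probe set at -2.91 (log2 change -2.19 ± 0.28, adjusted p = 0.000144). Cyria, a brake on the actin regulator Rac1, fell by 2.58 ± 0.45 (adjusted p = 0.00173), Gimap6, a GTPase of lymphoid and endothelial cells, by 2.25 ± 0.39 (adjusted p = 0.00177), and Adipor1, an adiponectin receptor, by 2.12 ± 0.36 (adjusted p = 0.00233). Of the imprinted genes, Nnat, a small membrane protein of developing brain and other tissue, had 2869.9, 2252 and 2727 at day 3, against 6300.5, 8672 and 9081 in mesenchymal cells (log2 change -1.59 ± 0.23, adjusted p = 0.000743), and Phlda2, a growth suppressor of placenta, had 415, 481 and 431 at day 3, against 1385, 1059 and 1017 in mesenchymal cells (log2 change -1.28 ± 0.18, adjusted p = 0.000568). Both had separate groups. Of 6 called genes of this paragraph on types A and C, Rasgef1b, Pip4k2c, Mtm1 and Nnat stayed past the threshold with the scan batch in the fit. The log2 change of Pip4k2c was -6.43 in that fit.

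Cartilage matrix genes rose together. Of 20 tested members, 15 rose and 0 fell, with a median log2 change of 3.10, beside 8.67% higher and a median of -0.05 over all genes. Of the 20, 12 had a mesenchymal mean under 200 and 0 a day 3 mean under it. Those 12 passed the filter through cultured samples, so the share and median follow in part from the filter. Over other settings of the fit on all array types the list's median ran from 2.40 to 3.30. Cytl1, a secreted cartilage protein, and Cnmd, a cartilage protein that blocks vessel growth, had the largest log2 changes of all genes tested, at 7.70 ± 0.39 and 7.53 ± 0.40 (adjusted p = 1.12e-08 and 1.63e-08). Cytl1 had 22172, 27234 and 10659.8 at day 3, against 75.9, 43.5 and 12.0 in mesenchymal cells, and Cnmd had 39297, 42327 and 23474 at day 3, against 48.8, 242 and 163 in mesenchymal cells. With mesenchymal signals this low the added 50 bears on both sizes, and a second Cytl1 probe set gave 2.40 (adjusted p = 0.0215). Matn4, a matrilin that links collagen and aggrecan, had 13758, 9836 and 18353 at day 3, against 292, 146 and 172 in mesenchymal cells, with every day 3 sample high (log2 change 5.79 ± 0.25, adjusted p = 5.18e-08). Matn1, the matrilin of mature cartilage, had 1377, 829.6 and 1335 at day 3, against 38.3, 34.3 and 10.4 in mesenchymal cells (log2 change 3.97 ± 0.34, adjusted p = 1.18e-05), and its day 1 mean was 25.7 ± 18.4. Mia, a small protein secreted by chondrocytes, had 4001, 3255 and 3659.6 at day 3, against 297, 178 and 29.3 in mesenchymal cells. No groups overlapped for any of these (log2 change 4.32 ± 0.41, adjusted p = 2.77e-05).

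Of the collagens built into cartilage fibrils, Col9a1 had 7423, 6615 and 9973 at day 3, against 1011, 874 and 744 in mesenchymal cells (log2 change 3.11 ± 0.20, adjusted p = 1.28e-06) and Col9a3 had 6753, 5959 and 8492 at day 3, against 725, 601 and 559 in mesenchymal cells (log2 change 3.38 ± 0.17, adjusted p = 1.92e-07). Col11a1 had 2986, 2569 and 6639 at day 3, against 241, 36.8 and 268 in mesenchymal cells, with day 3 replicate 4 apart from the rest at the high end (log2 change 4.23 ± 0.45, adjusted p = 7.55e-05). On second probe sets the log2 changes were 3.25 for Col9a1 and 4.87 for Col9a3. Col27a1 rose by 3.26 ± 0.32 (adjusted p = 1.18e-05), and Comp, which binds collagen fibrils in cartilage and tendon, by 3.31 ± 0.44 (adjusted p = 0.000141). Acan, the main proteoglycan of cartilage, had a log2 change of 2.40 ± 0.26 (adjusted p = 8.65e-05), and Hapln1, which fixes it to hyaluronan, one of 1.86 ± 0.41 (adjusted p = 0.0123) that was lost without day 3 replicate 1 (0.0615) or 3 (0.0539). The probe set for Col2a1, the defining collagen of cartilage, was below the filter in every group, with 14.5, 74.6 and 21.95 at day 3 against 212, 133 and 33.4 in mesenchymal cells, and was not tested. Col10a1, the collagen of hypertrophic cartilage, and Sox5 were below the filter as well.

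Of 21 tested chondrogenic transcription factors, 9 rose and 0 fell, with a median of 0.55, but 5 rose without day 3 replicate 1, day 3 replicate 4 or mesenchymal replicate 3. Sox9 had 3281, 3672 and 4370.2 at day 3, against 2086, 2719 and 2394 in mesenchymal cells; the groups were separate but close (log2 change 0.64 ± 0.19, adjusted p = 0.045), the call was lost in 15 of 22 alternative settings, among them leaving out any single day 3 or mesenchymal sample (adjusted p = 0.0587 to 0.123), and the day 1 mean was 6981 ± 1261. Sox6 had 267, 232 and 271 at day 3, against 54.9, 111 and 74.8 in mesenchymal cells (log2 change 1.26 ± 0.25, adjusted p = 0.00692) with a day 1 mean of 554 ± 36.6. A brighter Sox6 probe set on type B gave 2.26 (adjusted p = 2.37e-05). Its means were 1868 at day 3, 367 in mesenchymal cells and 4420 at day 1. The other Sox9 probe sets were not called either way, at 0.87, -0.17, 0.69 and 0.48, and that at 0.48 had its highest mean at day 3 and not at day 1. Nfix and Nfib, nuclear factor I proteins that act late in several lineages, had day 1 means of 1948 ± 212 and 1048 ± 246, under their day 3 means of 5752 ± 405 and 2382 ± 438. Nfib had 2708, 1884 and 2554 at day 3, against 318, 335 and 346 in mesenchymal cells (log2 change 2.65 ± 0.21, adjusted p = 6.02e-06), with all 5 of its other probe sets also higher. Nfix had 6171, 5722 and 5363 at day 3, against 529.5, 301 and 452 in mesenchymal cells (log2 change 3.63 ± 0.19, adjusted p = 3.01e-07), but its other probe sets gave 1.61, -0.23 and 0.22, the last 2 not called. Wwp2, a ubiquitin ligase that carries a cartilage microRNA in its gene, rose by 1.86 ± 0.20 (adjusted p = 6.11e-05). Of the 15 called cartilage genes named here on types A and C, 13 stayed past the threshold with the scan batch in the fit, and all 15 kept their sign. Over the whole lists on those types, 10 cartilage matrix genes rose with the batch and 14 without it, and 3 chondrogenic transcription factors rose with it and 8 without. With the batch as a random effect on types A and B and a fixed one on C, 5 of those factors rose over all array types.

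Genes of fibrous connective tissue rose with those of cartilage. Of 17 tested fibrillar and network collagens 9 rose and 1 fell (Col18a1), and of 7 small leucine-rich proteoglycans 5 rose and 0 fell. Ogn, a proteoglycan of tendon, bone and perichondrium, had 4409, 3913 and 4342 at day 3, against 16.5, 12.0 and 12.2 in mesenchymal cells. The mesenchymal signals were at the bottom of the scale (log2 change 6.07 ± 0.20, adjusted p = 8.57e-09). Aspn, a relative that binds TGF-beta, had 800.4, 772 and 782 at day 3, against 25.7, 25.5 and 22.2 in mesenchymal cells (log2 change 3.49 ± 0.39, adjusted p = 4.58e-05). Bgn, a proteoglycan of bone and cartilage, had 6760.4, 8628 and 9146 at day 3, against 783, 828 and 882 in mesenchymal cells (log2 change 3.21 ± 0.17, adjusted p = 2.36e-07), with other probe sets at 0.70 (adjusted p = 0.0592) and 4.42. In all 3 the groups stood apart. Col1a1, the collagen of bone and fibrous tissue, rose by 4.05 ± 0.23 (adjusted p = 4.9e-07), Col8a1 by 3.67 ± 0.32 (adjusted p = 1.33e-05), Col16a1 by 2.82 ± 0.26 (adjusted p = 7.46e-06) and Col5a2 by 2.74 ± 0.30 (adjusted p = 9.66e-05). Col8a2, a short network collagen, had 2694, 2809.6 and 2156 at day 3, against 79.1, 77.8 and 59.6 in mesenchymal cells (log2 change 4.41 ± 0.32, adjusted p = 7.65e-07), without overlap. The exception, the basement membrane collagen Col18a1, had 245, 326 and 149 at day 3, against 798, 1511 and 984 in mesenchymal cells (log2 change -1.99 ± 0.28, adjusted p = 0.000677), and its other probe sets were also negative.

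Elastic fibre genes were higher in 13 of 16 and lower in 1 (Fbln1), with a median of 1.39; without day 3 replicate 3, 8 were higher. Eln, elastin itself, had 5607, 6135 and 6549 at day 3, against 176, 234 and 192 in mesenchymal cells (log2 change 4.62 ± 0.19, adjusted p = 3.89e-08). Its day 1 mean was 215 ± 46.6, close to the mesenchymal level. Lox, the enzyme that cross-links elastin and collagen, had 4566, 5425 and 3016 at day 3, against 155, 29.2 and 10.3 in mesenchymal cells (log2 change 5.42 ± 0.39, adjusted p = 3.19e-06), and Fbln5, a fibulin that guides elastic fibre assembly, had 9223, 9492 and 5039 at day 3, against 1208, 1233 and 1213 in mesenchymal cells (log2 change 2.60 ± 0.22, adjusted p = 3.26e-06). Each had separate groups. Fbln2 rose by 2.60 ± 0.19 (adjusted p = 3.39e-06), whereas Fbln1, a fibulin of early mesenchyme and basement membrane, had 2431, 2079.6 and 2909.5 at day 3, against 4609, 5535 and 5459 in mesenchymal cells (log2 change -1.07 ± 0.17, adjusted p = 0.00157). The other Fbln1 probe sets gave -0.84 (adjusted p = 0.0115) and -0.35 (adjusted p = 0.289).

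Enzymes that modify collagen were higher in 14 of 17 and lower in 1 (Bmp1). Plod1, a lysyl hydroxylase, had 3444, 4081 and 3568 at day 3, against 564, 708 and 885 in mesenchymal cells (log2 change 2.30 ± 0.21, adjusted p = 5.31e-06), with its 4 other probe sets positive but not called. P4ha1 and P4ha2, prolyl hydroxylases, rose by 2.08 ± 0.33 (adjusted p = 0.00143) and 2.28 ± 0.27 (adjusted p = 0.00018). A second P4ha2 probe set was not called at 0.74 (adjusted p = 0.224). Crtap and P3h1, partners in prolyl 3-hydroxylation, rose by 1.85 ± 0.16 (adjusted p = 1.01e-05) and 1.87 ± 0.21 (adjusted p = 3.42e-05), and Pcolce2, an enhancer of procollagen cleavage, by 3.16 ± 0.24 (adjusted p = 1.28e-06). Matricellular proteins and protease inhibitors were higher in 17 of 23 and lower in 0, with a median of 1.91. Ccn2, a secreted factor that chondrocytes and fibroblasts make in response to TGF-beta and strain, had 7744, 7614 and 5646 at day 3, against 328, 316 and 371 in mesenchymal cells (log2 change 4.17 ± 0.18, adjusted p = 4.12e-08). Postn, a periosteal protein, had 3579.5, 2454 and 2993 at day 3, against 34.8, 78.8 and 69.2 in mesenchymal cells (log2 change 4.79 ± 0.26, adjusted p = 3.06e-07). Tnc, a tenascin of condensations and joints, had 1829.7, 2094 and 1799 at day 3, against 135, 99.5 and 46.3 in mesenchymal cells (log2 change 3.82 ± 0.26, adjusted p = 1.79e-06), and no values of the groups overlapped in these 3 genes. Ccn3, Sparc and Timp3 rose by 4.10 ± 0.32, 3.57 ± 0.25 and 2.05 ± 0.24 (adjusted p = 4.87e-06, 2.42e-06 and 0.000131). Of the 19 called connective tissue genes named here on types A and C, 17 stayed past the threshold with the scan batch in the fit, and all 19 kept their sign. The whole lists lost more of their rises on those types. With the batch 3 fibrillar and network collagens rose, against 8 without it, and their median was 0.54 with it and 1.14 without. The rises numbered 4 with the batch and 10 without for elastic fibre genes, and 2 and 4 for small leucine-rich proteoglycans. For collagen modification they numbered 8 with the batch and 11 without, and for matricellular proteins and protease inhibitors 11 and 16.

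The machinery that builds and exports matrix rose in part. Of 28 tested genes of sulphation and glycosaminoglycan synthesis, 12 rose and 0 fell, and of 34 genes of folding and secretion in the endoplasmic reticulum, 13 rose and 0 fell (8 without day 3 replicate 1). Papss2, which makes the sulphate donor for cartilage proteoglycans, had 1339.6, 1004 and 833 at day 3, against 288, 147 and 173 in mesenchymal cells (log2 change 2.15 ± 0.29, adjusted p = 0.000487). Chst11, a chondroitin sulphotransferase, had 1590.5, 1131 and 1513 at day 3, against 74.2, 106 and 337 in mesenchymal cells (log2 change 2.89 ± 0.41, adjusted p = 0.000233). Both had separate groups. Chpf, a chondroitin polymerising factor, rose by 2.03 ± 0.22 (adjusted p = 7.24e-05), with a second probe set at 0.00, and Hs6st1, a heparan sulphotransferase, by 1.40 ± 0.19 (adjusted p = 0.000205). Kdelr3, a receptor that returns chaperones to the endoplasmic reticulum, had 2775, 2402 and 2014 at day 3, against 349, 302 and 233 in mesenchymal cells (log2 change 2.83 ± 0.20, adjusted p = 2.27e-06), with no overlap. Sec24d, a coat protein for collagen export, rose by 2.29 ± 0.25 (adjusted p = 3.09e-05) and Creb3l2, a transcription factor of secretory load in chondrocytes, by 1.65 ± 0.26 (adjusted p = 0.000725). Lysosomal genes were higher in 13 of 20 and lower in 0, with 7 higher without day 3 replicate 1 or 3 and 8 without mesenchymal replicate 3. The cathepsin Ctsd had 4540.0, 4083 and 6307 at day 3, against 1334, 1559 and 1395 in mesenchymal cells (log2 change 1.74 ± 0.20, adjusted p = 0.000121), without overlap. Ctsb, Ctsa and Ctsl rose by 1.78 ± 0.20, 1.57 ± 0.22 and 1.27 ± 0.16 (adjusted p = 0.000129, 0.000604 and 0.000291); 1 other Ctsb probe set was not called at 0.32. Of the 8 called genes named in this paragraph on types A and C, 7 stayed past the threshold with the scan batch in the fit. The lists lost more, with 3 rises with the batch and 6 without for sulphation, 3 and 11 for folding and secretion, and 4 and 13 for lysosomal genes.

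Contractile genes of smooth muscle and myofibroblasts rose, in 9 of 16 tested, with 1 lower (Srf, the factor that drives them) and a median of 1.20. Acta2, smooth muscle actin, rose by 6.73 ± 0.23 (adjusted p = 9.47e-09), with 9002, 10904 and 10822 at day 3, against 90.0, 32.0 and 27.9 in mesenchymal cells; a second probe set was not called at 0.64. Tagln, an actin-binding protein, had 7833, 10671 and 7208 at day 3, against 754, 652 and 566 in mesenchymal cells (log2 change 3.60 ± 0.18, adjusted p = 1.63e-07). Cnn1, calponin of smooth muscle, had 2141, 3826 and 1739 at day 3, against 84.6, 112 and 25.3 in mesenchymal cells (log2 change 4.39 ± 0.33, adjusted p = 3.73e-06), and day 3 replicate 3 was the highest for each of these 3 genes. Tpm1, a tropomyosin, had 12068, 13645 and 10550.4 at day 3, against 919, 1074 and 1226 in mesenchymal cells (log2 change 3.44 ± 0.17, adjusted p = 1.75e-07), with its other probe sets between 0.21 and 2.04. Cald1 and Smtn rose by 1.89 ± 0.25 and 2.55 ± 0.35 (adjusted p = 0.000166 and 0.000518). Of the skeletal muscle list, 2 of 14 rose, beside 8.67% of all genes, and Des, an intermediate filament of muscle, was below the filter. On types A and C, 8 contractile genes of the list were higher without the scan batch in the fit and 5 with it, the 5 being those named here.

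Adhesion genes of condensation were higher in 12 of 29 and lower in 4 (Cdh5, Emb, Nrp2 and Gja1). Cdh2, the cadherin that draws mesenchymal cells together, had 1559, 1879.7 and 936 at day 3, against 132, 264 and 691 in mesenchymal cells. The groups were separate although mesenchymal replicate 4 was well above the rest of its group (log2 change 2.06 ± 0.43, adjusted p = 0.00886). Ncam1, which takes over in later condensation, had 1209, 1104 and 1878 at day 3, against 516, 609.7 and 526 in mesenchymal cells (log2 change 1.23 ± 0.21, adjusted p = 0.00259), and Fn1, the fibronectin of condensations, had 1918, 2761 and 3544 at day 3, against 1519, 1043 and 1134 in mesenchymal cells (log2 change 1.10 ± 0.24, adjusted p = 0.0103). Neither overlapped. Bsg, an inducer of matrix proteases, Nrp1, a semaphorin and VEGF receptor, and Itgav, an integrin, rose by 1.45 ± 0.16, 2.24 ± 0.28 and 1.49 ± 0.19 (adjusted p = 7.78e-05, 0.00023 and 0.000351); a second Itgav probe set gave 0.22. Emb, a relative of Bsg from early embryos, had 105, 36.9 and 117 at day 3, against 551, 357 and 449.9 in mesenchymal cells (log2 change -1.92 ± 0.32, adjusted p = 0.00234), with a second probe set at -0.43. Of the 7 called genes named here on types A and C, 4 stayed past the threshold with the scan batch in the fit, Cdh2 among them. In the list, 6 rose and 1 fell with the batch, against 10 and 3 without.

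Imprinted growth genes were higher in 9 of 18 and lower in 3, with 4 higher and 1 lower with the scan batch in the fit. Dlk1, a membrane protein of progenitors that lies in an imprinted cluster, had 5102, 5346 and 3728 at day 3, against 657, 728 and 537 in mesenchymal cells (log2 change 2.78 ± 0.19, adjusted p = 2.1e-06), with a day 1 mean of 819 ± 109 near the mesenchymal level and a second probe set at 0.86. Plagl1, a zinc finger factor that acts on other imprinted genes, had 1133, 1341 and 873 at day 3, against 175, 176 and 291 in mesenchymal cells (log2 change 2.15 ± 0.26, adjusted p = 0.000196), and all of its other probe sets rose. Igf2, the embryonic growth factor, had 25511, 27361 and 66488 at day 3, against 17463, 15019.8 and 12912 in mesenchymal cells; day 3 replicate 4 was far above the rest, and the call (log2 change 1.26 ± 0.31, adjusted p = 0.0216) was lost without mesenchymal replicate 3 (adjusted p = 0.0624) or 4 (0.0569). Igf2r, which clears Igf2, rose by 1.04 ± 0.19 (adjusted p = 0.00337), and Slc38a4, an amino acid transporter, by 1.27 ± 0.15 (adjusted p = 0.000201).

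Further large rises included secreted proteins that no list holds. Prss35, a serine protease-like protein, had 7308, 8929.6 and 2941 at day 3, against 44.7, 27.1 and 37.6 in mesenchymal cells (log2 change 6.08 ± 0.43, adjusted p = 3.38e-07). Grp, the gastrin-releasing peptide, had 4633, 2040.4 and 2576 at day 3, against 32.5, 23.1 and 24.7 in mesenchymal cells (log2 change 5.27 ± 0.48, adjusted p = 3.38e-06), with a day 1 mean of 20.6 ± 2.30. Sbspon, a somatomedin and thrombospondin domain protein, had 7419.7, 6466 and 6322 at day 3, against 189, 194 and 163 in mesenchymal cells (log2 change 4.87 ± 0.27, adjusted p = 2.95e-08). In these 3 genes the mesenchymal samples were all low and the day 3 samples all high. Fibin, a secreted factor known from zebrafish fin buds, rose by 3.96 ± 0.27 (adjusted p = 4.44e-07), Sema3d, a guidance cue, by 3.89 ± 0.29 (adjusted p = 1.19e-06), Fgf12, an intracellular FGF relative, by 3.88 ± 0.38 (adjusted p = 7.56e-06) and Ak1, which balances adenine nucleotides, by 3.88 ± 0.26 (adjusted p = 1.56e-06). Mgp, which keeps cartilage from calcifying and is in the list of hypertrophy and ossification, had a log2 change of 5.47 ± 0.19 (adjusted p = 9.42e-09). Of 11 called genes in this and the preceding paragraph on types A and C, 8 stayed past the threshold with the scan batch in the fit.

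Medians of the housekeeping lists ran from -0.29 to 0.31, beside -0.05 over all genes tested. Of all genes, 8.67% rose and 4.80% fell. Limma called none of 32 tested ribosomal protein genes (median -0.29), of which 7 were lower and 0 higher at an unadjusted p under 0.05, and with array weights 3 fell. Of the others, 5 of 49 oxidative phosphorylation genes rose and 1 fell (median 0.02), and of 30 genes of hypoxia and glycolysis 4 rose and 0 fell (median 0.31). The hypoxia and glycolysis count was 2 without replicate 3 of any group, and the oxidative phosphorylation rises numbered 2 without day 3 or mesenchymal replicate 1 or 3 and 3 without day 1 replicate 1, while its falls numbered 4 without mesenchymal replicate 4. Of 26 cytosolic chaperones 3 fell and 0 rose (median -0.20), a count of 0 without day 3 replicate 1 or 4 and of 1 without day 3 replicate 3 or any single mesenchymal sample. Cholesterol synthesis genes were higher in 3 of 17 and lower in 0 (median 0.17), with 1 higher without any single day 3 sample, mesenchymal replicate 1 or 3, or day 1 replicate 1 or 3. The hypertrophy and tendon lists, which are not housekeeping, held larger shares of rises. Of 14 tested genes of hypertrophy and ossification 6 rose and 0 fell, but 3 rose without day 3 replicate 1 or mesenchymal replicate 1. Of 15 tendon and joint genes 8 rose and 0 fell. With the scan batch in the fit on types A and C, 2 tendon and joint genes rose, against 6 without, and 3 hypertrophy and ossification genes, against 5.

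**Figure D4:**
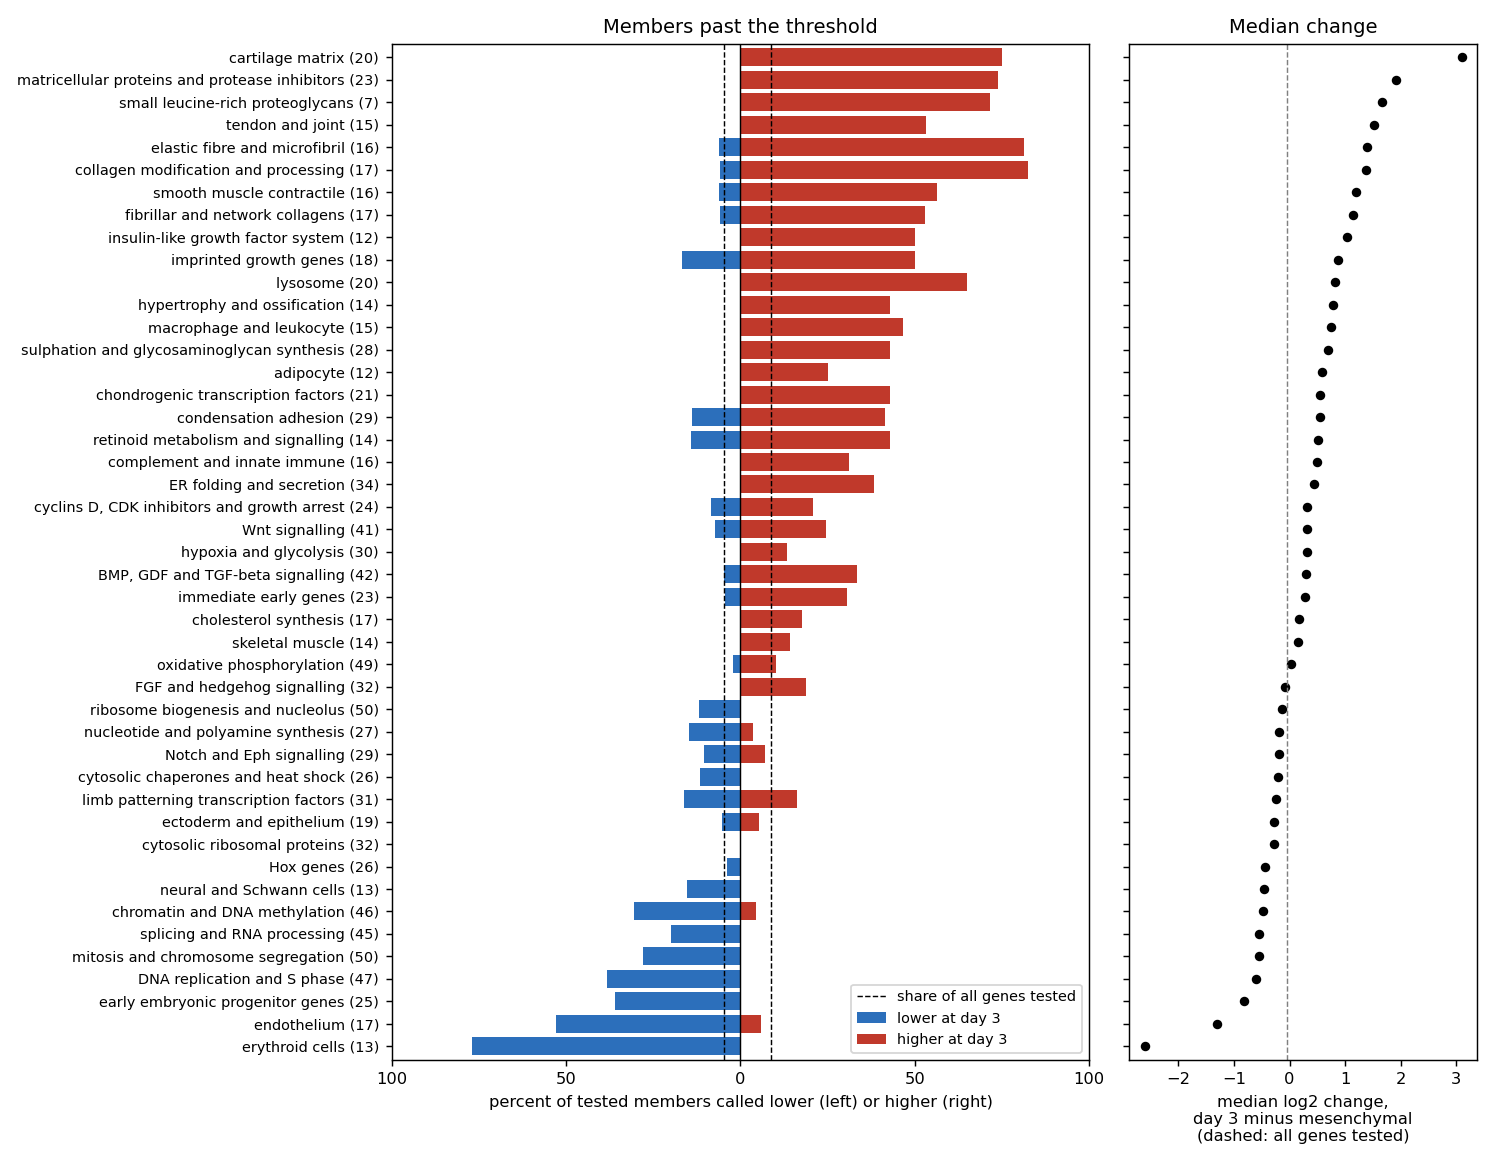
For each gene list (tested members in brackets), the left panel gives the percent of members called lower (blue, to the left) or higher (red, to the right) at day 3, with dashed lines at the share over all genes tested, and the right panel gives the median log2 change with a dashed line at that of all genes. Cartilage matrix, matricellular and collagen processing lists lie at the top, and endothelial and erythroid lists at the bottom.

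Day 1 values placed these changes in the course. Values of both days are against the same 3 mesenchymal samples, and the difference between the days was not tested here. The median log2 difference of cartilage matrix was 0.82 at day 1 and 3.10 at day 3, and that of elastic fibre genes was 0.59 and 1.39. Smooth muscle genes stood at 0.50 at day 1 and 1.20 at day 3, and lysosomal genes at 0.42 and 0.81. Replication genes stood at -0.26 and -0.60, and mitosis genes at -0.32 and -0.56. Among the falls, the endothelial list was at -1.47 at day 1 and -1.31 at day 3, and the progenitor list at -0.71 and -0.81. The erythroid median was -1.36 and then -2.61, with day 1 sums of 11583, 74797 and 122053 that spread far more than those of the other groups.

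**Figure D5:**
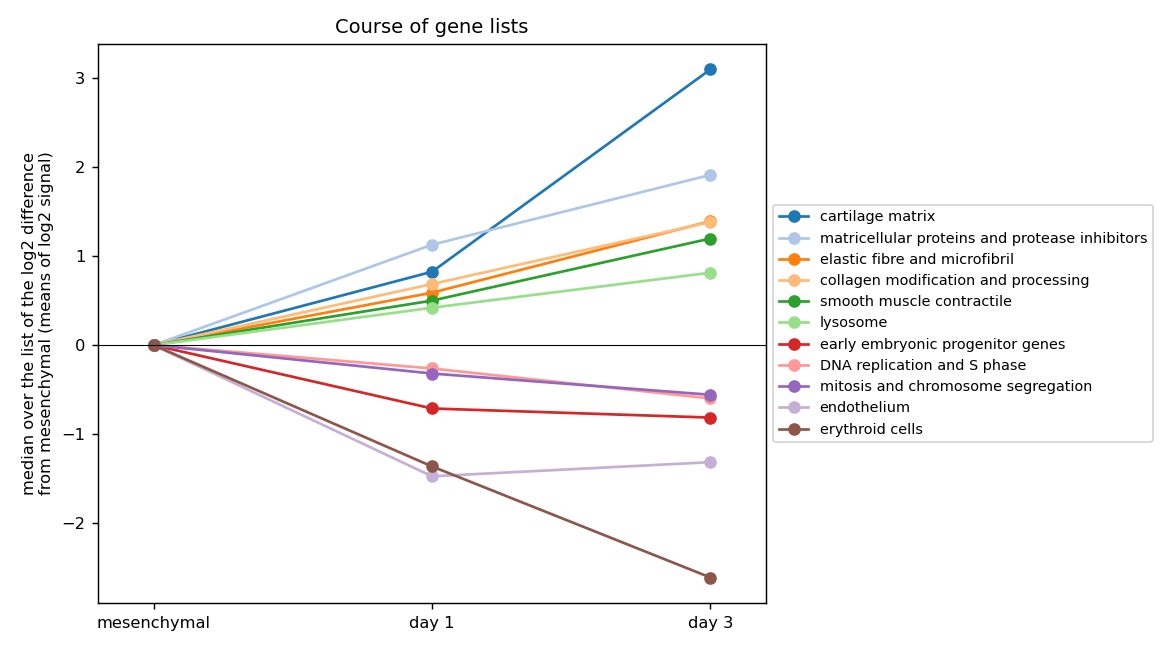
Median over each list of the log2 difference from mesenchymal cells, at day 1 and day 3, with mesenchymal cells set to 0; each point rests on 3 RNA samples per group. Cartilage matrix lies at 0.82 at day 1 and at 3.10 at day 3, while the endothelial list lies at -1.47 and -1.31.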

How the data were processed

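The deposited values are 1 intensity per probe set and array, a MAS5 signal on a linear scale, made with MAS5 per the submitters' processing notes. The sources used here give neither its version nor its settings. On every array the deposited values had the same trimmed mean, so they had been scaled before deposit, and the number of arrays limits the precision. Signals were scaled to a 2% trimmed mean of 500 per array, and 50 was added before the log2. Control probe sets and 13156 probe sets with a mean under 200 in every group were left out. Tests on the other 23545 used limma 3.58.1 in R 4.3.3 (lmFit, eBayes with trend, statmod 1.5.0 for random blocks). Each array type had 1 fit of all 9 RNA samples. The 3 day 1 samples help to estimate the spread, and they also enter the filter and the choice of probe set by mean signal. With the 6 day 3 and mesenchymal samples alone 12052 genes were tested, against 12214 with all 9. Benjamini-Hochberg adjustment ran over all 3 array types, with a threshold of 0.05; 1541 probe sets rose and 948 fell. A gene is read from 1 probe set, taken from type A where it has one, otherwise from B, otherwise from C, with ties broken by mean signal. Other probe sets shared its sign for 359 of 445 among genes that fell and 531 of 690 among those that rose. Of all these other probe sets, 92 and 221 were called in the same direction as the gene, and 5 and 6 in the opposite one. Gene names came from the platform annotation, updated to GRCm38.p6: 29131 of 36701 probe sets had 1 symbol, 724 several and 6846 none. Genes named are the 30 largest rises and 30 largest falls without overlap, up to 8 called members per list, and a set of limb and cartilage genes, from which fewer were taken. Members and lists were chosen with earlier results of these data known. Promoters came from RefSeq, with a script matching each motif on both strands. Tested on simulated data for day 3 against mesenchymal cells (22692 probe sets, 200 of them changed), the fit called 0% of 1.5-fold, 10.4% of 2-fold and 51.5% of 4-fold changes, with 4 false among 45 calls, so a gene not called may still differ. The simulated data held no scan batch and fewer changed probe sets than were called in the real data. These rates therefore need not hold for the real data.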

Additional observations from a re-analysis of the deposited data

How the results depend on the processing

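With array weights 1590 genes rose and 1254 fell, and 1970 probe sets fell. With the scan batch as a fixed block on array types A and C, chosen after seeing the data, 229 genes rose and 58 fell, 292 probe sets rose and 82 fell, and 113 members of the gene lists were called; fewer probe sets enter this fit and its standard errors are larger. Leaving out 1 sample at a time gave 663 to 1115 genes that rose and 300 to 649 that fell, and 966 to 1617 probe sets that rose and 491 to 1039 that fell. The labels do not state whether samples with the same replicate number are related. The deviations of such day 3 and mesenchymal samples from their group means correlated at -0.43 to 0.10. With 3 samples per group this does not settle whether they are paired. With the replicate block 902 genes rose and 402 fell, so its counts stayed within 1.5 times. The counts of genes stayed within that range under the other settings too. These were the 6 samples alone, a scan block random on types A and B and fixed on C, and eBayes without trend. The rest were pseudocounts of 16 and 100, no filter, a filter of 400, quantile normalization and median centring. Another choice of probe set and leaving out the 3 samples with a high 18S signal also kept the counts within it. Of 184 genes named, 2 (Hoxa13 and Sox9) lost their call with the replicate block. No call of these genes turned its sign in a setting tried. The cause of these shifts was not tested. Signals near background limit what can be said of genes under the filter.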
